A study of Mus musculus with 15 samples.

Results

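The genes described here are those of oxidative phosphorylation, the respiratory chain and ATP synthase of mitochondria, in mouse mammary tumors driven by Erbb2. Members were taken by symbol: those starting with Ndufa, Ndufb, Ndufc, Ndufs, Ndufv, Uqcr, Cox4i, Cox5, Cox6, Cox7, Cox8 or Atp5, with Sdha, Sdhb, Sdhc, Sdhd and Cyc1, without pseudogenes. This gave 88 of the 22180 genes with a value, and 83 of them were among the 14243 genes bright enough to be tested. The 5 members left untested were Atp5j2, Cox7b2, Cox7c, Cox8c and Ndufs5. The symbol rule also takes in 8 Ndufaf genes, which encode assembly factors and not subunits of complex I, and they are described apart. Ndufa4 is counted with complex IV, the complex its protein is now placed in, as is its paralog Ndufa4l2.

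Total RNA came from 15 flash-frozen end-burden tumors of ErbB2KI mice, in which floxed Ctnnb1 alleles were targeted for deletion in mammary epithelium, with 1 Affymetrix array per tumor. Ctnnb1 encodes beta-catenin, a protein of adherens junctions and of canonical Wnt signalling. The 3 genotypes were Ctnnb1 fl/fl (HOM), Ctnnb1 fl/wt (HET) and Ctnnb1 wt/wt (WT), with 5 tumors each, all carrying the ErbB2KI allele. The promoter driving Cre, the strain background, the age and whether tumors came from separate mice are not given in the sources used. Values are log2 array values, given per tumor in the order 1 to 5 and as mean ± SD (n = 5 per genotype), and a difference is a difference of mean log2 values. P-values are from a limma fit of all 14243 tested genes, adjusted by Benjamini-Hochberg, and they measure the spread between these tumors only.

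Oxidative phosphorylation passes electrons from NADH through complex I, or from succinate through complex II, by coenzyme Q to complex III and by cytochrome c to complex IV, where oxygen is reduced. Complexes I, III and IV pump protons, and complex V, the ATP synthase, uses the gradient to make ATP. A few subunits are encoded by mitochondrial DNA and the rest by nuclear genes, and several complex IV subunits exist as a broadly expressed form and a form restricted to tissues such as heart and skeletal muscle.

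To show the contrast between these isoforms, promoter sequences of 5 complex IV genes are printed from RefSeq (GRCm38.p6), each from 200 bases before to 10 bases after the annotated start, 5′ to 3′ on the gene's strand. Cox6a1, Cox7a2 and Cox8a encode broadly expressed isoforms, and Cox7a1 and Cox8b their heart and skeletal muscle counterparts. Capitals mark matches to the NRF1 motif GCATGCG or the ETS motif CCGGAAG on either strand.
Cox6a1 (chr5:115348949-115349158, minus strand): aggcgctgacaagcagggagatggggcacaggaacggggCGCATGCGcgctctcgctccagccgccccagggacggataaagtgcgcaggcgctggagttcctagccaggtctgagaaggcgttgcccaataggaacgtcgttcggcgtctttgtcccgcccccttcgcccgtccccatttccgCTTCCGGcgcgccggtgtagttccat
Cox7a2 (chr9:79759844-79760053, minus strand): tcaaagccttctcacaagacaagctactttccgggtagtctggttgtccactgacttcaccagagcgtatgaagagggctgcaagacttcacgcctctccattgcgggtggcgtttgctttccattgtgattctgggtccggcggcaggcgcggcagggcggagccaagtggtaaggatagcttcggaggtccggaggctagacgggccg
Cox8a (chr19:7217607-7217816, minus strand): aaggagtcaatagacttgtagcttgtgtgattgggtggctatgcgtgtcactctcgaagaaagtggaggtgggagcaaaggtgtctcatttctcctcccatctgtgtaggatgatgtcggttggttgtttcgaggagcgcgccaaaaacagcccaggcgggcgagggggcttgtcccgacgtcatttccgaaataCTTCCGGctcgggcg
Cox7a1 (chr7:30183971-30184180, plus strand): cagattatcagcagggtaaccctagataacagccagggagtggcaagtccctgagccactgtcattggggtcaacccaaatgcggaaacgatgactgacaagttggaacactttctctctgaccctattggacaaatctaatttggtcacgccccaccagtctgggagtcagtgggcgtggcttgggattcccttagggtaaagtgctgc
Cox8b (chr7:140900437-140900646, minus strand): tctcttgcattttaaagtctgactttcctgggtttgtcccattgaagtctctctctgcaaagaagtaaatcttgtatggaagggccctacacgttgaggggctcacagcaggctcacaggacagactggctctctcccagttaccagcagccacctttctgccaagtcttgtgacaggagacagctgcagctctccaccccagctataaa
In these windows Cox6a1 held an NRF1 match beginning at -161, overlapping its own reverse complement at -160, and an ETS match beginning at -16, with positions counted from the annotated start. Cox8a held an ETS match beginning at -5. Cox7a2, Cox7a1 and Cox8b held no match to these letters.

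Over the RefSeq windows of 250 bases before to 50 after the start, 72 of the 88 members had a promoter. The NRF1 motif was present for 18.1% of these members and 4.01% of all 27025 genes with a promoter. For the ETS motif the shares were 26.4% and 9.93%. The ERR motif AAGGTCA was found for 8.33% of the members and 5.38% of all genes, and the YY1 motif AAGATGG for 15.3% and 7.28%. At least 1 of the 4 motifs, searched on both strands, was present for 51.4% of the members and 23.8% of all genes. NRF1, ETS proteins, estrogen-related receptors and YY1 are transcription factors known for regulating nuclear respiratory genes, and a match is a description of the sequence only.

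Ctnnb1 was examined first as a check of the genotypes. It was 11.58, 11.30, 11.36, 11.15 and 12.01 in HOM tumors, 11.66, 11.39, 11.22, 11.63 and 11.60 in HET tumors and 11.71, 12.09, 12.10, 12.08 and 11.21 in WT tumors. The tumor labelled HOM 5 lay within the range of WT 1 to WT 4, and the tumor labelled WT 5 lay within that of HOM 1 to HOM 4, both against their labels. HET minus WT was -0.34, HOM minus WT was -0.36 and HOM minus HET was -0.021, and none passed a two-sided exact permutation test (p = 0.0952, 0.143 and 0.905, all at least 0.214 after adjustment over the 3). Results are therefore also given without the tumors labelled WT 5 and HOM 5. Where the array's probes lie relative to the floxed region was not determined.

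Across the 15 tumors the respiratory genes varied slightly less than the typical gene, and a few tumors stood out for many members at once. The median SD over all tumors was 0.26 for the 83 tested members and 0.31 for all tested genes. The mean over all tested members was 9.19, 9.52, 9.37, 9.22 and 9.22 in HOM tumors, 9.01, 9.10, 9.499, 8.94 and 9.27 in HET tumors and 9.65, 9.27, 9.26, 9.20 and 9.27 in WT tumors. WT 1 was the highest of all 15 and HET 4 the lowest, and the ranges of the 3 genotypes overlapped. In WT 1 the members stood a median of 0.34 above their own 15-tumor means and 76 of 83 were above it. In HET 4 the median deviation was -0.33 and 6 of 83 were above their mean. HOM 2 came after WT 1, at a median deviation of 0.24.

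**Figure D1:**
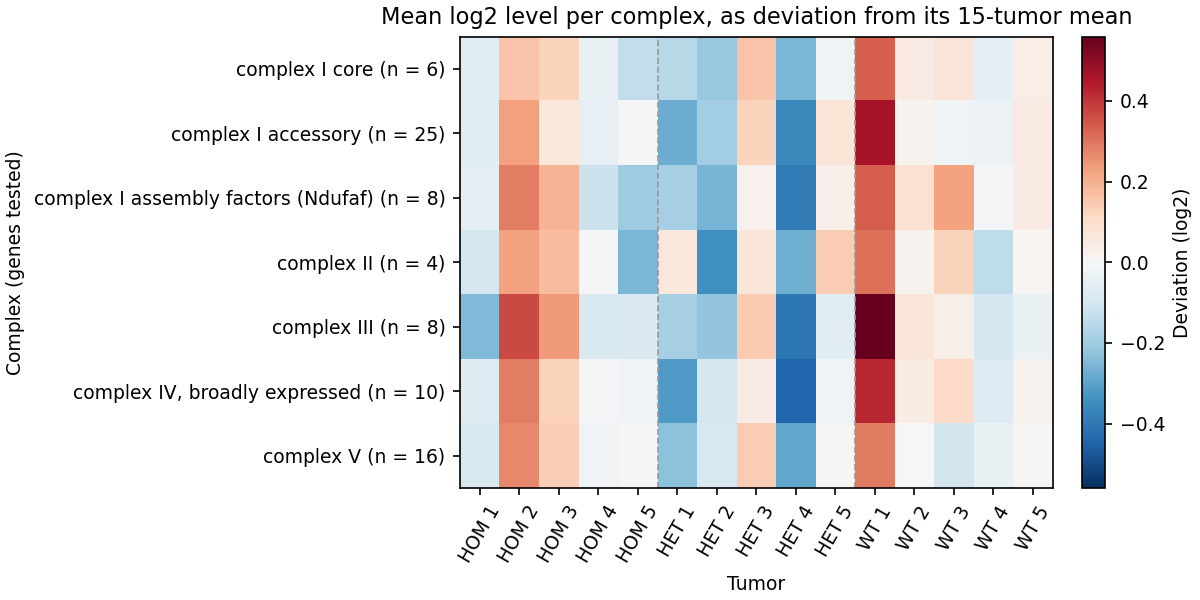
Mean log2 level of the tested genes of each complex (rows, with the number of genes) in each of the 15 tumors (columns, HOM, HET and WT separated by dashed lines), as the deviation from that complex's mean over all tumors, with the tissue-restricted complex IV isoforms left out. WT 1 is above 0 and HET 4 below 0 in each of the 7 rows drawn.

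WT 1 held the highest value of 41 of the 83 members, against 17.0% of all tested genes. These included 18 of 25 complex I accessory subunits, 4 of 6 core subunits, 5 of 8 complex III genes, 6 of 10 broadly expressed complex IV genes and 6 of 16 complex V genes. The largest deviations there were those of Uqcrq, at 0.93 above its mean, and of Uqcrfs1, the Rieske iron-sulfur protein of complex III, at 0.89. HET 4 held the lowest value of 38 members, against 13.5% of all tested genes, among them 13 complex I accessory subunits and 9 complex V genes. HET 1 held the lowest value of 19 members, against 13.9% of all tested genes, and HOM 2 the highest of 13, against 4.66%. HET 3 held the highest of 11, against 4.09%, and 67 of 83 members were above their own mean there.

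These tumors also differed in markers of the cells they hold. Of 20 epithelial markers, all tested, the mean was 7.57 in HET 1 and 9.44 in HET 4, and between 9.93 and 10.89 in the other 13 tumors. The mean of 12 fibroblast markers was highest in HET 4, at 11.57, and was 7.03 in WT 1, second lowest after 6.59 in HET 5. The mean of 12 pan-leukocyte markers was lowest in WT 1, at 7.71, and highest in HET 1, at 10.01. The mean of the 12 tested skeletal muscle markers was highest in HET 3, at 10.77, and at most 6.76 in the other tumors. In whole tumors, fewer cells of a type and less RNA per cell cannot be told apart. The part of these markers in the deviations of WT 1, HET 1, HET 3 and HET 4 was not tested tumor by tumor.

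**Figure D2:**
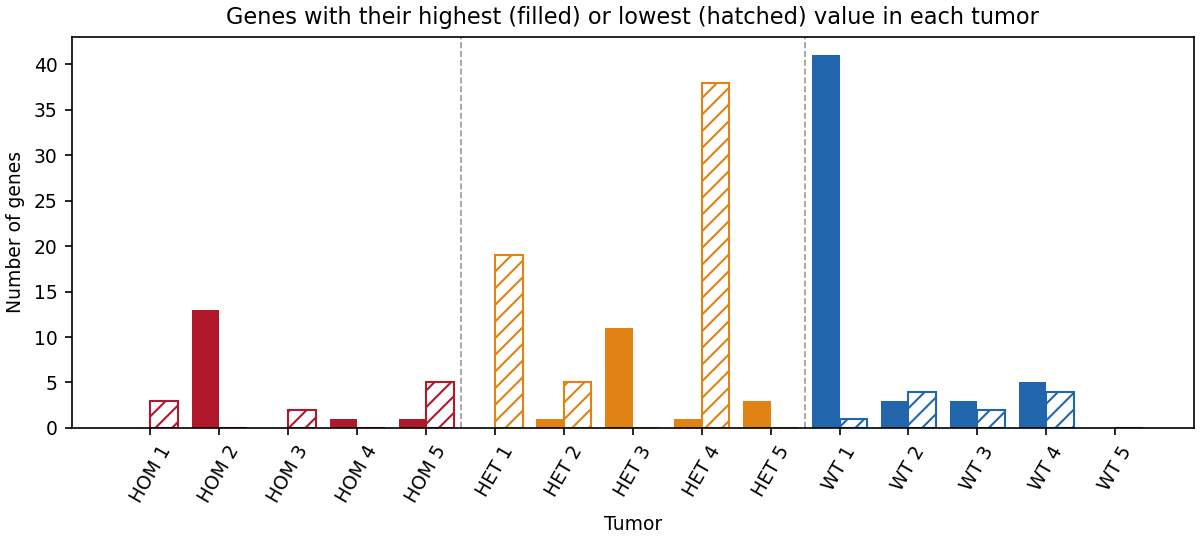
Number of the 83 tested genes that have their highest value (filled bars) or lowest value (hatched bars) in each tumor, with HOM, HET and WT tumors separated by dashed lines. WT 1 holds 41 of the highest values and HET 4 holds 38 of the lowest.

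Tumors with 1 floxed Ctnnb1 allele were first compared with WT tumors. Most respiratory genes had a slightly lower mean in HET tumors, but no member passed the test. Means were lower for 68 of 83 members (81.9%, against 54.5% of all tested genes) and higher for 15 (18.1%, against 45.5%). The median difference was -0.20, a level 87.0% of WT, against a median of -0.030 over all tested genes. With limma, 0 of 83 members were called at an adjusted p of 0.05 in either direction, where 0.0140% of all tested genes were called lower and 0% higher, and a model with unmoderated variances called 0 as well. At an unadjusted p under 0.05, 11 members were lower (13.3%, against 8.38% of all tested genes) and 0 higher (against 4.99%). The smallest adjusted p of a member was 0.224. The 95% interval of the difference lay within 1 of 0 for 76 members and within 0.5 of 0 for 31.

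The number lower at an unadjusted p under 0.05 depended on single tumors. It was 5 without WT 1 and 7 without HET 2 or without HET 4, and it was 19 without HET 3 or without HET 5. The matching shares of all tested genes are not given for these fits. Without HET 3, 48 of all tested genes were called at an adjusted p under 0.05, against 2 with all tumors. The change was thus not limited to members. The median difference was -0.11 without WT 1, and without the tumors labelled WT 5 and HOM 5 it was -0.20 with 68 members lower. With the epithelial marker mean as a covariate the median was -0.11 and 61 of 83 members were lower, and with the skeletal muscle marker mean it was -0.27 with 77 lower. The muscle marker mean was 10.77 in HET 3 and at most 6.76 in the other tumors. The fit with it is thus close to leaving out HET 3, which gave a median of -0.26 with 78 members lower. Among the epithelial markers 19 of 20 had a lower mean in HET tumors. All 12 tested neutrophil markers had a higher mean, 11 at an unadjusted p under 0.05, and their mean ranged from 7.60 to 10.65 in HET tumors and from 6.14 to 7.61 in WT tumors. The part of neutrophil content in these differences was not tested.

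HOM against WT compared tumors with 2 floxed alleles to tumors with none, and the levels were close. Means were lower for 55 of 83 members (66.3%, against 52.8% of all tested genes) and higher for 28 (33.7%, against 47.2%), with a median difference of -0.048, against -0.012 over all tested genes. With limma 0 members were called in either direction, with 0% of all tested genes called, and every adjusted p rounded to 1. At an unadjusted p under 0.05, 0 members were lower (against 1.16% of all tested genes) and 0 higher (against 0.541%), and the unmoderated model called 0 too. The 95% interval lay within 1 of 0 for 79 members and within 0.5 of 0 for 55. This balance turned on WT 1: without it 30 of 83 members were lower and the median was 0.026. Without any other single tumor it ran from -0.090 to -0.018. Without the tumors labelled WT 5 and HOM 5, 56 members were lower and the median was -0.046.

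HOM against HET compared 2 floxed alleles with 1, and here the means ran the other way. They were higher in HOM tumors for 70 of 83 members (84.3%, against 52.4% of all tested genes) and lower for 13 (15.7%, against 47.6%), with a median difference of 0.16, a level 111% of HET, against 0.014 over all tested genes. With limma 0 members were called, with 0% of all tested genes called, and the smallest adjusted p of a member was 0.587. At an unadjusted p under 0.05, 3 members were higher, Ndufa7, Cox4i1 and Ndufb11 (3.61%, against 4.82% of all tested genes), and 0 lower (against 3.11%), and the unmoderated model called 0 too. The count of 3 was 1 without HET 4, 5 without HOM 1, 6 without HOM 5, HET 5 or WT 1, and 10 without HET 3. The matching shares of all tested genes are not given for these fits, so these changes cannot be called particular to members. The number with a lower mean was 20 without HET 1 and 6 without HET 3. The 95% interval lay within 1 of 0 for 78 members and within 0.5 of 0 for 38. Without the tumors labelled WT 5 and HOM 5 the median was 0.20. The 3 comparisons share their tumors pairwise, so these counts are not separate observations. All 20 epithelial markers had a higher mean in HOM than in HET tumors, and with their mean as a covariate the median was 0.096 and 22 of 83 members were lower. HET 1, the tumor lowest in that mean, weighs heavily in this fit, and leaving it out gave 20 lower. All 12 neutrophil markers had a lower mean in HOM tumors, 5 at an unadjusted p under 0.05, and their mean ranged from 6.70 to 9.17 in HOM tumors and from 7.60 to 10.65 in HET tumors. The epithelial covariate is thus no separate check of epithelial content, and the part of either cell type in these differences was not tested.

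**Figure D3:**
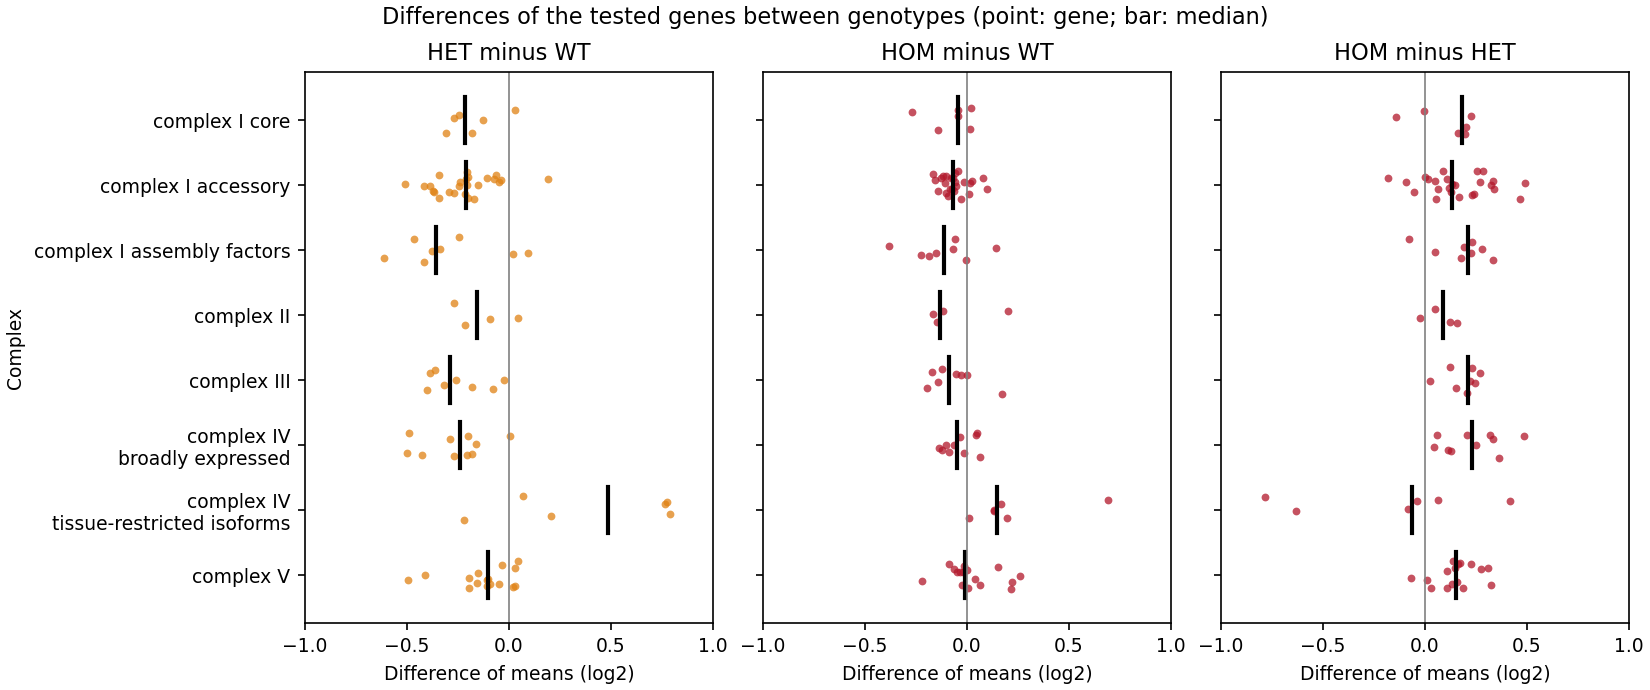
Difference of mean log2 values for each tested gene (points) by complex, for HET minus WT, HOM minus WT and HOM minus HET, with the median of each complex as a black bar. In HET minus WT the medians lie between -0.36 and -0.10 except that of the tissue-restricted complex IV isoforms, at 0.49. In HOM minus WT all medians lie between -0.13 and 0.15.

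Groups were fully separated for few members. In HET against WT every HET tumor lay below every WT tumor for Cox7a2 and Ndufaf5 (2.41% of members, against 1.05% of all tested genes), and no member was separated upward (against 0.534%). In HOM against WT this held downward for Cox5b (1.20%, against 0.169%), and in HOM against HET upward for Ndufb11 (1.20%, against 0.611%) and downward for no member (against 0.414%). Cox7a2, Cox6a1, Cox8a, Uqcrq, Uqcrfs1, Ckm, Ucp1 and Cidea fall outside the naming rule and were picked after their values were seen.

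Counts by complex and by list are to be read against the shares of all tested genes. In HET against WT, 54.5% of them had a lower mean and 8.38% were lower at an unadjusted p under 0.05. In HOM against WT, 52.8% had a lower mean. In HOM against HET, 52.4% had a higher mean and 4.82% were higher at an unadjusted p under 0.05. Counts of 1 or 2 genes at that p are no result about a complex. Complex I takes electrons from NADH, through core subunits that carry the flavin and the iron-sulfur clusters. Of the 6 nuclear core subunits with a value, 5 had a lower mean in HET than in WT tumors (median -0.21, 1 at an unadjusted p under 0.05), 4 had a lower mean in HOM than in WT (median -0.044), and 4 a higher mean in HOM than in HET (median 0.18). Ndufs1, the large iron-sulfur subunit and the core gene with the widest spread, was 8.91, 9.07, 9.20, 8.81 and 8.56 in HOM tumors, 9.25, 8.86, 9.14, 8.72 and 9.29 in HET tumors, and 9.37, 9.63, 9.10, 8.68 and 9.12 in WT tumors. Its highest value was in WT 2 and its lowest in HOM 5, and all genotypes overlapped. It differed by -0.27 (95% interval -0.66 to 0.12, adjusted p = 1) for HOM against WT, 1 of the 3 lower members with the smallest p there. HET differed from WT by -0.13 (adjusted p = 0.778) and HOM from HET by -0.14 (adjusted p = 0.854). Ndufv1, which binds NADH and the flavin, was 10.42, 10.59, 10.53, 10.58 and 10.41 in HOM tumors, 10.11, 10.22, 10.67, 10.18 and 10.33 in HET tumors, and 11.10, 10.30, 10.55, 10.35 and 10.44 in WT tumors. WT 1 was the highest by far, with HET 3 next. HET 1, HET 2 and HET 4 lay below every HOM and WT tumor. HET differed from WT by -0.25 and HOM from WT by -0.043 (adjusted p = 0.475 and 1), and HOM from HET by 0.20 (adjusted p = 0.735).

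Accessory subunits surround the core and are needed for its assembly and stability. Of 25 tested, 24 had a lower mean in HET than in WT tumors (median -0.21, 2 at an unadjusted p under 0.05), 20 a lower mean in HOM than in WT (median -0.066) and 21 a higher mean in HOM than in HET (median 0.13, 2 at an unadjusted p under 0.05). Ndufa7 was 8.83, 9.23, 9.01, 8.65 and 8.96 in HOM tumors, 8.30, 8.52, 8.58, 8.05 and 8.80 in HET tumors, and 9.57, 8.81, 8.74, 8.91 and 8.75 in WT tumors. WT 1 stood alone at the top and HET 4 at the bottom, and the genotypes overlapped. Ndufa7 differed by -0.51 (95% interval -0.89 to -0.12, adjusted p = 0.274) for HET against WT and by 0.49 (95% interval 0.10 to 0.88, adjusted p = 0.587) for HOM against HET, while HOM and WT differed by -0.016. Ndufb11 was 6.76, 6.52, 6.66, 6.45 and 6.49 in HOM tumors, 6.22, 5.81, 6.42, 5.95 and 6.15 in HET tumors, and 7.26, 6.25, 6.20, 6.39 and 6.29 in WT tumors. Every HOM tumor lay above every HET tumor, and WT 1 lay above all. It differed by 0.46 (95% interval 0.064 to 0.87, adjusted p = 0.587) for HOM against HET.

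Ndufb8, whose protein is widely used as a readout of assembled complex I, was 7.29, 8.12, 7.97, 7.77 and 7.84 in HOM tumors, 7.38, 7.45, 7.72, 7.11 and 7.62 in HET tumors, and 8.41, 7.75, 7.60, 7.61 and 7.76 in WT tumors. WT 1 was again the highest, and the differences were -0.37 (HET minus WT), -0.031 (HOM minus WT) and 0.34 (HOM minus HET), with adjusted p = 0.395, 1 and 0.66 in that order. Ndufa11, the accessory gene with the widest spread, was 10.46, 11.26, 10.86, 10.30 and 10.37 in HOM tumors, 10.52, 10.20, 10.26, 10.15 and 10.76 in HET tumors, and 11.29, 10.86, 10.84, 10.45 and 10.39 in WT tumors. Its 2 highest tumors were WT 1 and HOM 2, and it differed by -0.39 for HET against WT (adjusted p = 0.429). These values are those of its brightest cluster. With the clusters of the gene averaged, the HET against WT difference was -0.10. For HOM against HET it was 0.27 from the brightest cluster and 0.11 with clusters averaged. Ndufb3 was the accessory subunit with a higher mean in HET, at 7.60 ± 0.23 in HOM, 7.78 ± 0.45 in HET and 7.59 ± 0.29 in WT tumors (adjusted p = 0.704 for HET against WT and 0.836 for HOM against HET).

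The Ndufaf assembly factors build complex I without staying in it. Of 8, 6 had a lower mean in HET than in WT tumors (median -0.36, against 54.5% of all tested genes lower). Of these, 4 had an unadjusted p under 0.05 (against 8.38% of all tested genes). In HOM against WT 7 had a lower mean (median -0.11), and in HOM against HET 7 had a higher mean (median 0.21). Ndufaf3, which acts in building the part that binds coenzyme Q, was 8.70, 9.07, 9.16, 8.75 and 8.64 in HOM tumors, 8.59, 8.53, 8.70, 8.29 and 9.06 in HET tumors, and 9.53, 8.98, 9.68, 9.11 and 8.94 in WT tumors. HET tumors were below all WT tumors except for HET 5, which lay within the WT range, and the HOM tumors overlapped both. It had the smallest p of any member in HET against WT, a difference of -0.61 (95% interval -1.001 to -0.23, adjusted p = 0.224), a level 65.3% of WT. For HOM against WT the difference was -0.38 (95% interval -0.77 to 0.0028, adjusted p = 1).

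Ndufaf5, which modifies an arginine of a core subunit, was 5.64, 6.18, 5.88, 5.61 and 5.76 in HOM tumors, 5.83, 5.27, 5.93, 5.56 and 5.52 in HET tumors, and 6.10, 6.14, 6.05, 5.97 and 5.94 in WT tumors. The WT tumors were tightly grouped and above every HET tumor, by as little as the gap between HET 3 and WT 5, and HOM 2 was the highest of all 15. It differed by -0.42 (95% interval -0.72 to -0.12, adjusted p = 0.253) for HET against WT and by -0.22 for HOM against WT (adjusted p = 1). Ndufaf1, which takes part in building the membrane arm, was 9.08, 8.90, 9.09, 8.66 and 8.91 in HOM tumors, 8.31, 8.41, 9.01, 8.46 and 9.06 in HET tumors, and 8.85, 9.02, 9.13, 9.39 and 9.17 in WT tumors. Of the HET tumors, 3 lay below every other tumor, and HET 3 and HET 5 lay among the WT values. HET differed from WT by -0.46 (95% interval -0.82 to -0.11, adjusted p = 0.274). Ndufaf8, with the widest spread of the 8, was 8.08, 9.33, 8.996, 8.16 and 7.78 in HOM tumors, 8.48, 8.14, 8.17, 7.63 and 8.24 in HET tumors, and 9.29, 8.24, 8.65, 7.88 and 8.29 in WT tumors. HOM 2, WT 1 and HOM 3 were high and HET 4 low, and HOM and WT means were equal to 2 decimals, at 8.47 ± 0.66 and 8.47 ± 0.53.

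**Figure D4:**
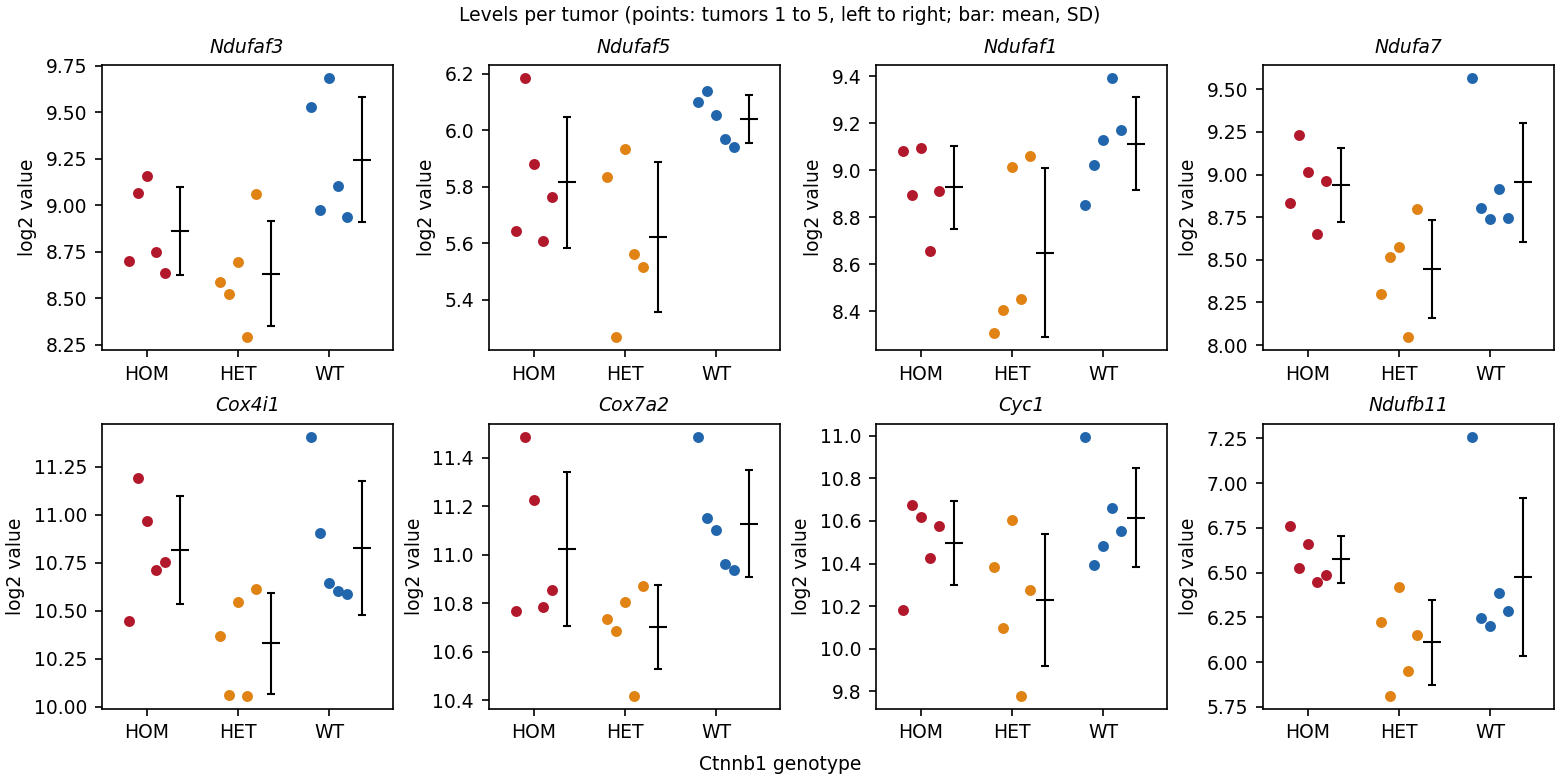
Log2 values of 8 genes in each tumor (points, tumors 1 to 5 from left to right within HOM, HET and WT), with the mean and SD as a cross bar and error bars; each panel has its own axis, which does not start at 0. Every HET value lies below every WT value for Ndufaf5 and Cox7a2, and WT 1 lies above all other tumors for Ndufa7, Cox4i1, Cyc1 and Ndufb11.

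Complex II is succinate dehydrogenase, an enzyme of the citric acid cycle whose subunits are all nuclear-encoded. Of its 4 genes, 3 had a lower mean in HET than in WT tumors (median -0.15), 3 a lower mean in HOM than in WT (median -0.13) and 3 a higher mean in HOM than in HET (median 0.086), none at an unadjusted p under 0.05. Sdha, the flavoprotein, was 10.97, 10.82, 11.12, 10.85 and 10.27 in HOM tumors, 10.87, 10.40, 10.89, 10.42 and 10.82 in HET tumors, and 11.27, 10.92, 11.10, 10.66 and 10.80 in WT tumors. WT 1 was the highest and HOM 5 the lowest, and the differences were -0.27 (HET minus WT), -0.15 (HOM minus WT) and 0.12 (HOM minus HET), with adjusted p = 0.493, 1 and 0.87 in that order. Sdhb, the iron-sulfur subunit, averaged 8.64 ± 0.22 in HOM, 8.66 ± 0.23 in HET and 8.75 ± 0.25 in WT tumors. The membrane anchor Sdhc averaged 10.13 ± 0.15 in HOM, 10.08 ± 0.29 in HET and 10.30 ± 0.09 in WT tumors. The other anchor, Sdhd, averaged 10.51 ± 0.27 in HOM, 10.35 ± 0.36 in HET and 10.31 ± 0.18 in WT tumors. No comparison of these 3 genes passed the test (adjusted p at least 0.48).

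Complex III carries electrons from coenzyme Q to cytochrome c. All 8 of its genes had a lower mean in HET than in WT tumors (median -0.29, 1 at an unadjusted p under 0.05) and a higher mean in HOM than in HET (median 0.21), and 6 had a lower mean in HOM than in WT (median -0.086). Cyc1, the cytochrome c1 subunit, was 10.18, 10.67, 10.62, 10.43 and 10.58 in HOM tumors, 10.38, 10.10, 10.60, 9.78 and 10.28 in HET tumors, and 10.995, 10.39, 10.48, 10.66 and 10.55 in WT tumors. WT 1 was the highest and HET 4 the lowest, and HET 3 lay among the WT tumors. It differed by -0.39 (95% interval -0.73 to -0.043, adjusted p = 0.327) for HET against WT, while HOM differed from WT by -0.12 (adjusted p = 1) and from HET by 0.27 (adjusted p = 0.687). Uqcrc2, a core protein of the matrix side, averaged 11.59 ± 0.17 in HOM, 11.44 ± 0.26 in HET and 11.62 ± 0.18 in WT tumors (adjusted p at least 0.571). Uqcr11, a small subunit with the widest spread of complex III, was 7.93, 9.39, 9.02, 8.21 and 8.23 in HOM tumors, 8.63, 8.16, 8.57, 8.01 and 8.25 in HET tumors, and 9.34, 8.999, 8.87, 8.19 and 8.23 in WT tumors. HOM 2 and WT 1 were the highest and HOM 1 the lowest, so tumors of 1 genotype differed more than the genotype means did.

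Complex IV passes electrons to oxygen. Of 10 tested genes of the broadly expressed forms, 9 had a lower mean in HET than in WT tumors (median -0.24, 2 at an unadjusted p under 0.05), 7 a lower mean in HOM than in WT (median -0.049) and all 10 a higher mean in HOM than in HET (median 0.23, 1 at an unadjusted p under 0.05). Cox4i1, the largest nuclear-encoded subunit, was 10.45, 11.19, 10.97, 10.71 and 10.76 in HOM tumors, 10.37, 10.06, 10.54, 10.06 and 10.61 in HET tumors, and 11.41, 10.90, 10.64, 10.60 and 10.58 in WT tumors. WT 1 and HOM 2 were the highest, HET 2 and HET 4 the lowest, and the genotypes overlapped. It differed by -0.50 (95% interval -0.90 to -0.099, adjusted p = 0.292) for HET against WT and 0.49 (95% interval 0.086 to 0.89, adjusted p = 0.587) for HOM against HET, while HOM and WT differed by -0.013.

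Cox5b, which binds zinc, was 11.70, 11.76, 11.65, 11.69 and 11.75 in HOM tumors, 11.24, 11.68, 11.92, 11.48 and 12.02 in HET tumors, and 11.96, 11.77, 11.82, 11.82 and 11.86 in WT tumors. Every HOM tumor lay below every WT tumor, but the means differed by only -0.13 (95% interval -0.41 to 0.14, adjusted p = 1), and the HET tumors spanned both groups (adjusted p = 0.557 for HET against WT and 0.941 for HOM against HET). This separation was read from the brightest cluster of Cox5b only. With its clusters averaged, the HOM against WT difference was -0.062 and that of HOM against HET was -0.025. Cox7a2, whose promoter is printed above, was 10.77, 11.49, 11.22, 10.78 and 10.86 in HOM tumors, 10.74, 10.69, 10.80, 10.42 and 10.87 in HET tumors, and 11.49, 11.15, 11.10, 10.96 and 10.94 in WT tumors. HET tumors lay below all WT tumors, and HOM 2 and HOM 3 lay with the highest WT values. Cox7a2 differed by -0.42 (95% interval -0.76 to -0.087, adjusted p = 0.29) for HET against WT. Ndufa4, with the widest spread of these genes, was 10.90, 11.32, 10.92, 10.78 and 10.25 in HOM tumors, 9.87, 11.01, 10.85, 9.98 and 10.79 in HET tumors, and 11.04, 10.58, 11.002, 10.42 and 10.91 in WT tumors. HET 1 and HET 4 were the lowest and HOM 2 the highest (adjusted p = 0.619 for HET against WT). Cox6a1 and Cox8a, also shown by their promoters, differed by 0.0065 and -0.16 for HET against WT (adjusted p = 0.99 and 0.519). Cox6c, found on array clusters with several symbols only, was not analysed here.

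Among the tissue-restricted isoforms of complex IV, Cox6a2 and Cox8b stood apart in 1 tumor, HET 3. Of 6 tested, 5 had a higher mean in HET than in WT tumors (median 0.49), 6 a higher mean in HOM than in WT (median 0.15) and 2 a higher mean in HOM than in HET (median -0.062), none at an unadjusted p under 0.05. Cox6a2, the heart and skeletal muscle form of subunit 6a, was 5.95, 6.08, 5.52, 5.99 and 6.06 in HOM tumors, 5.66, 6.02, 10.01, 6.09 and 5.72 in HET tumors, and 6.13, 5.90, 5.90, 6.01 and 5.61 in WT tumors. HET 3 stood apart and the other 14 tumors lay within a narrow range. HET differed from WT by 0.79 (95% interval -0.57 to 2.15, adjusted p = 0.593), and by -0.037 without HET 3. For HOM against HET the difference was -0.78 (adjusted p = 0.758). Cox8b, the heart and skeletal muscle form of subunit 8 in rodents, was 4.98, 6.09, 4.98, 5.51 and 5.05 in HOM tumors, 4.47, 4.54, 9.99, 5.88 and 4.88 in HET tumors, and 6.69, 5.63, 4.72, 4.38 and 4.51 in WT tumors. HET 3 again stood apart, with WT 1 and HOM 2 next. The difference was 0.77 for HET against WT (adjusted p = 0.715) and -0.24 without HET 3.

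HET 3 was also the tumor with the highest skeletal muscle markers. The mean of the 12 tested skeletal muscle markers, of 18 measured, was 10.77 in HET 3, 6.15 to 6.76 in the other HET tumors, 6.11 to 6.44 in HOM tumors and 6.10 to 6.68 in WT tumors. Ckm, muscle creatine kinase, reached 11.24 in HET 3, against 4.98 to 6.04 elsewhere. With the skeletal muscle marker mean as a covariate, the HET against WT difference was -0.10 for Cox6a2 and -0.32 for Cox8b. Since that mean stood apart in HET 3 only, this fit is close to leaving out HET 3, which gave -0.037 and -0.24. It is therefore no separate check of muscle content. Cox7a1, the heart and skeletal muscle form of subunit 7a, was 8.13, 6.98, 7.54, 6.55 and 6.60 in HOM tumors, 5.97, 5.85, 8.49, 5.93 and 7.48 in HET tumors, and 8.16, 5.78, 6.80, 6.57 and 7.52 in WT tumors. It was highest in HET 3 but nearly as high in WT 1 and HOM 1, where the muscle marker means were 6.38 and 6.16. Cox7a1 and Cox8b are known from brown fat too. Of its markers measured here, Ucp1, the uncoupling protein, was too dim to be tested, at 4.603 to 4.99 in the 15 tumors. Cidea, a lipid droplet protein also of brown fat, was 8.27, 8.69, 8.81, 7.49 and 6.10 in HOM tumors, 5.01, 8.56, 8.09, 6.64 and 5.45 in HET tumors, and 8.34, 5.90, 8.21, 6.58 and 7.59 in WT tumors. Cidea was 8.27 in HOM 1, 8.09 in HET 3 and 8.34 in WT 1, the tumors highest in Cox7a1. It was higher in HOM 3, HOM 2 and HET 2, at 8.81, 8.69 and 8.56, where Cox7a1 was 7.54, 6.98 and 5.85. The mean of 11 adipocyte markers ranged from 6.34 to 9.11 in HOM tumors, 5.86 to 8.32 in HET tumors and 6.58 to 6.86 in WT tumors. That mean was 6.91 in HOM 1, 8.32 in HET 3 and 6.81 in WT 1. It was highest in HOM 4, at 9.11, where Cox7a1 was 6.55 and Cidea 7.49. In HOM 3, where Cidea was highest, the adipocyte mean was 6.34. In HET against WT, Cidea had the lowest difference of the 11 adipocyte markers, -0.57, while 9 of them had a higher mean. Cidea thus did not follow the other adipocyte markers here. The part of fat cells in these levels was not tested.

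Ndufa4l2, an isoform known for induction by hypoxia, was 6.91, 7.41, 6.98, 7.02 and 8.08 in HOM tumors, 5.90, 9.27, 7.89, 7.29 and 6.47 in HET tumors, and 6.28, 6.68, 6.34, 6.93 and 6.71 in WT tumors. HET 2 was the highest and HET 1 the lowest, so the HET tumors alone spanned the whole range. It had the smallest p of the members with a higher mean in HET against WT, a difference of 0.77 (95% interval -0.26 to 1.81, adjusted p = 0.488), and differed by 0.69 (95% interval -0.34 to 1.72, adjusted p = 1) for HOM against WT. The mean of 13 hypoxia and glycolysis genes ranged from 9.73 to 10.45 in HOM tumors, 9.97 to 10.47 in HET tumors and 9.71 to 10.79 in WT tumors. The mean of 9 pericyte markers ranged from 8.48 to 9.41 in HOM tumors, 7.58 to 10.08 in HET tumors and 8.09 to 8.94 in WT tumors. HET 2, where Ndufa4l2 was highest, had the highest hypoxia and glycolysis mean of the HET tumors, 10.47, and a pericyte mean of 8.42. The hypoxia and glycolysis mean was higher in WT 2 and WT 4, at 10.79 and 10.69, where Ndufa4l2 was 6.68 and 6.93. The part of either list in the level of Ndufa4l2 was not tested. Cox4i2, the other hypoxia-linked isoform, averaged 7.63 ± 0.49 in HOM, 7.57 ± 0.20 in HET and 7.50 ± 0.22 in WT tumors. Cox6b2, known from testis, averaged 5.72 ± 0.12 in HOM, 5.76 ± 0.19 in HET and 5.55 ± 0.25 in WT tumors (adjusted p = 0.495 for HET against WT). The other testis forms, Cox7b2 and Cox8c, were not tested and stayed within 2.58 to 3.36 and 3.49 to 3.80.

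**Figure D5:**
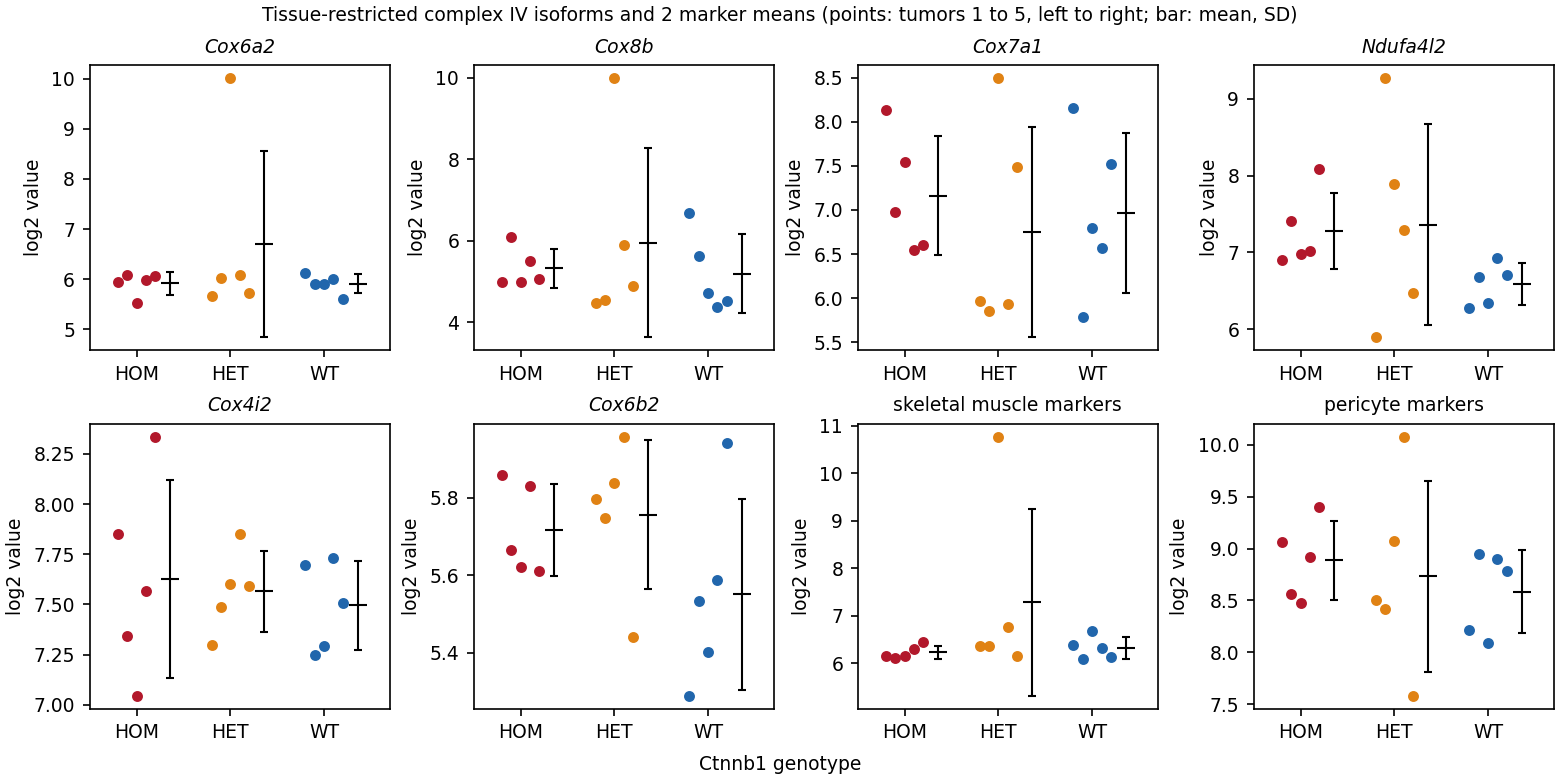
Log2 values of the 6 tested tissue-restricted complex IV isoforms and the means of the skeletal muscle and pericyte markers in each tumor (points, tumors 1 to 5 from left to right within HOM, HET and WT), with the mean and SD; each panel has its own axis, which does not start at 0. Cox6a2, Cox8b and the skeletal muscle markers are high in HET 3, and Ndufa4l2 is highest in HET 2.

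Complex V makes ATP with a catalytic head and a membrane rotor. Of 16 tested genes, 12 had a lower mean in HET than in WT tumors (median -0.10, 1 at an unadjusted p under 0.05), 8 a lower mean in HOM than in WT (median -0.0072) and 15 a higher mean in HOM than in HET (median 0.15). Atp5b, the catalytic beta subunit, was 13.05, 13.08, 13.13, 12.99 and 12.91 in HOM tumors, 12.97, 12.91, 13.16, 12.93 and 13.02 in HET tumors, and 13.19, 13.02, 13.05, 12.97 and 13.02 in WT tumors. It had the smallest SD over the 15 tumors of all tested members, 0.0852, and its differences were -0.050 (HET minus WT), -0.018 (HOM minus WT) and 0.032 (HOM minus HET), with adjusted p = 0.819, 1 and 0.935 in that order. Atp5mpl, a small membrane subunit, had the widest spread of the 16 and was 7.90, 8.86, 8.43, 8.07 and 7.94 in HOM tumors, 7.87, 7.96, 8.35, 7.47 and 8.17 in HET tumors, and 8.99, 8.65, 8.52, 7.97 and 8.18 in WT tumors. WT 1 and HOM 2 were the highest and HET 4 the lowest, and HET differed from WT by -0.50 (95% interval -0.99 to -0.00056, adjusted p = 0.373). Atp5o, which joins the stalk to the head, was 6.06, 6.72, 6.57, 5.88 and 5.97 in HOM tumors, 5.80, 6.17, 6.33, 5.76 and 6.002 in HET tumors, and 5.96, 6.07, 5.93, 6.06 and 5.90 in WT tumors. HOM 2 and HOM 3 were the highest, and it had the smallest p of the members with a higher mean in HOM against WT, a difference of 0.26 (95% interval -0.10 to 0.62, adjusted p = 1).

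Other genes of the pathway were read from whole lists, whichever way they moved. In HET against WT, 54.5% of all tested genes had a lower mean and 8.38% were lower at an unadjusted p under 0.05. The 10 subunits encoded by mitochondrial DNA all had a lower mean in HET than in WT tumors, but by a median of -0.086 only, and 0 passed an unadjusted p of 0.05. ND6, a complex I subunit, averaged 9.72 ± 0.42 in HOM and 9.04 ± 0.44 in HET tumors (difference 0.67, adjusted p = 0.636). Of 40 other assembly and accessory factors, 32 had a lower mean in HET than in WT tumors (median -0.14, 4 at an unadjusted p under 0.05). Uqcc1, a complex III assembly factor, averaged 7.55 ± 0.12 in HOM, 7.24 ± 0.24 in HET and 7.78 ± 0.16 in WT tumors (HET against WT -0.54, adjusted p = 0.207). Nubpl, which delivers iron-sulfur clusters to complex I, averaged 7.33 ± 0.38 in HET and 8.24 ± 0.40 in WT tumors (difference -0.90, adjusted p = 0.245).

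Of 18 regulators of respiratory genes, 14 had a lower mean in HET than in WT tumors (median -0.12). Twnk, the mitochondrial DNA helicase, averaged 7.67 ± 0.20 in HOM, 7.09 ± 0.37 in HET and 7.72 ± 0.28 in WT tumors (HET against WT -0.63, adjusted p = 0.224, and HOM against HET 0.58, adjusted p = 0.587). Ppargc1a, the coactivator PGC-1alpha, averaged 6.38 ± 1.26 in HET and 7.69 ± 1.19 in WT tumors (difference -1.30, adjusted p = 0.385). Of 17 genes of the citric acid cycle and pyruvate dehydrogenase, 16 had a lower mean in HET than in WT tumors (median -0.23) and 17 in HOM than in WT (median -0.099). Of 13 genes for cytochrome c and coenzyme Q, 11 had a lower mean in HET than in WT tumors (median -0.20). Hccs, which attaches heme to cytochrome c, went the other way, at 9.62 ± 0.11 in HOM, 10.22 ± 0.29 in HET and 9.58 ± 0.17 in WT tumors (HET against WT 0.64, adjusted p = 0.206, and HOM against HET -0.60, adjusted p = 0.587). No gene of these 5 lists passed the adjusted threshold in any comparison.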

How the data were processed

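RNA from 15 mammary tumors was measured on Affymetrix whole-transcript arrays. Per the labels' protocols, labelled cDNA was made from 100 ng of total RNA. Per the submitters' processing notes, Affymetrix Expression Console and Transcriptome Analysis Console were used. Versions and normalization are not stated in the labels. The authors deposited log2 values for 41345 transcript clusters. Their scale was read from the range, 1.06 to 13.9. Array medians lay between 5.54 and 5.73.

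Names came from the platform's annotation table. Among the clusters, 25335 had a gene, 23521 exactly 1 symbol, 1814 several and 16010 none. Of those with 1 symbol, 23328 matched a RefSeq table by Entrez ID. The brightest one-symbol cluster was kept per gene, so Cox6c, Ndufb2, Ndufb4, Ndufb4b, Ndufb4c, Ndufs6, Ndufs6b and Uqcr10 had no value. Genes above the array median on at least 5 arrays were tested with limma 3.58.1 (R 4.3.3, functions lmFit and eBayes, two-sided, 3 genotypes together, 12 residual degrees of freedom, Benjamini-Hochberg over 14243 genes, threshold 0.05). The test was checked on simulated data. Replicate numbers follow accession order. No batch was given, and the number of arrays limits precision. No detection calls were used, so low values carry no call of presence.

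Members, gene lists and alternatives were chosen with earlier results of these data known. Named members were those past the threshold, the 3 higher and 3 lower with the smallest p in each comparison, a fixed set of subunits, the tissue-restricted isoforms and the most variable gene of each complex. Non-members were the 2 smallest p of each pathway list. Lists of epithelial, skeletal muscle, adipocyte, fibroblast, pericyte, leukocyte, B and plasma cell, T and NK cell, and neutrophil markers served as descriptions. Alternatives varied filter, normalization, clusters, moderation, array weights, covariates and tumors.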

Additional observations from a re-analysis of the deposited data

Results flagged for a closer look

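Within genotypes, 120 groups of 5 tumors over 40 values were examined for a single tumor far from the other 4, and 11 stood out. Chance gives about 5% of groups, but some of the genes were named for a small p or a wide spread in these same data. That share is therefore no reference for the 11. Of the 11, 7 concern WT 1 against the other WT tumors. Ndufa7 was 9.57 in WT 1 and 8.74 to 8.91 in the others, Ndufb11 was 7.26 and 6.20 to 6.39, and Ndufb8 was 8.41 and 7.60 to 7.76. The mean of all tested members was 9.65 in WT 1 and 9.20 to 9.27 in the others. The complex I accessory mean was 9.60 against 9.10 to 9.18, the complex III mean 10.28 against 9.63 to 9.79, and the complex V mean 9.98 against 9.59 to 9.70.

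In HET 3, Cox6a2 was 10.01 against 5.66 to 6.09 in the other HET tumors, Cox8b was 9.99 against 4.47 to 5.88, and the mean of the tissue-restricted complex IV isoforms was 8.30 against 5.85 to 6.50. In HOM 3, Cox6a2 was 5.52 against 5.95 to 6.08 in the other HOM tumors. These values share tumors and genes, so they are not separate events.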

How the results depend on the processing

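In every comparison, 0 members were called at an adjusted p of 0.05 under all alternatives run, with 61 to 88 members compared. The median difference kept its sign in each comparison under all alternatives except in HOM against WT without WT 1, at 0.026. Of the alternative values, 2627 stayed on the same side, 95 had the opposite sign, 72 moved and 4 gained a call. The differences with a turned sign are uncalled. For those listed here, with the main values in the report, the cause was not tested.

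Without a filter, HOM against WT gave 1 member lower at an unadjusted p under 0.05. With the filter at the 75th percentile, HET against WT gave 0 genes called among all tested, and HOM against HET gave 8 members with a lower mean. After renewed quantile normalization, HET against WT gave 1 gene called among all tested, and HOM against WT gave Cox4i1 0.0051, Cox6a2 -0.043 and Ndufaf8 0.024, and HOM against HET gave 5 members higher at an unadjusted p under 0.05. After median centring, HOM against WT gave 1 member lower at an unadjusted p under 0.05 and Cox6a2 -0.035. With clusters of a gene averaged, HOM against WT gave Ndufa11 0.0039, and HOM against HET gave Cox5b -0.025. Without moderation, HET against WT gave 1 gene called among all tested, and HOM against HET gave 5 members higher at an unadjusted p under 0.05. With array weights, HET against WT gave 0 genes called among all tested, 1 member higher at an unadjusted p under 0.05 and Sdhd -0.0020, and HOM against WT gave 1 member lower at an unadjusted p under 0.05, Atp5b 0.0045, Cox4i1 0.012, Ndufaf8 0.052, Ndufv1 0.041 and Uqcrc2 0.018. With only the 2 genotypes compared, HET against WT gave 1 gene called among all tested, and HOM against WT gave 1 member higher at an unadjusted p under 0.05. With the epithelial covariate, HET against WT gave 1 gene called among all tested, 1 member higher at an unadjusted p under 0.05 and Cox7a1 0.23, and HOM against WT gave 1 member lower at an unadjusted p under 0.05 and Cox6a2 -0.011, and HOM against HET gave 1 member lower at an unadjusted p under 0.05, 1 member higher at an unadjusted p under 0.05, 22 members with a lower mean, Cox5b -0.11, Cox7a1 -0.064, Sdhb 0.081 and Sdhc -0.047. With the skeletal muscle covariate, HET against WT gave 23 genes called among all tested, Cox6a2 -0.10, Cox8b -0.32 and Sdhd -0.023, and HOM against HET gave 1 gene called among all tested, 10 members higher at an unadjusted p under 0.05, 6 members with a lower mean, Cox6a2 0.20, Cox8b 0.56 and Ndufa4l2 0.084. Without the tumors labelled WT 5 and HOM 5, HET against WT gave 1 member higher at an unadjusted p under 0.05 and Ctnnb1 -0.49, and HOM against WT gave 4 genes called among all tested, 1 member higher at an unadjusted p under 0.05, Atp5b 0.0058, Cox4i2 -0.042, Cox6a2 -0.10, Ndufaf8 0.13, Uqcrc2 0.034 and Ctnnb1 -0.65, and HOM against HET gave 6 genes called among all tested and Cox4i2 -0.11. Without HET 1 and HET 3, HET against WT gave 10 genes called among all tested, 1 member higher at an unadjusted p under 0.05, Cox8b -0.085 and Sdhd -0.095, and HOM against HET gave 1 gene called among all tested, 8 members higher at an unadjusted p under 0.05, Cox4i2 -0.015, Cox5b -0.014, Cox6b2 0.00095, Cox8b 0.22 and Sdhb 0.093.

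Leaving out each tumor in turn, HET against WT gave 1 to 48 genes called among all tested, 0 to 1 members higher at an unadjusted p under 0.05 and 5 to 19 members lower at an unadjusted p under 0.05, and differences for Cox7a1 -0.66 to 0.080, Cox6a2 -0.037 to 1.05, Cox8b -0.24 to 1.14, Sdhd -0.038 to 0.16, Cox4i2 -0.0025 to 0.14 and Ctnnb1 -0.49 to -0.27. Leaving out each tumor in turn, HOM against WT gave 0 to 2 members lower at an unadjusted p under 0.05, 0 to 2 members higher at an unadjusted p under 0.05 and 30 to 63 members with a lower mean, and differences for Cox4i1 -0.11 to 0.13, Cox7a1 -0.099 to 0.49, Ndufaf8 -0.22 to 0.20, Ndufb8 -0.11 to 0.11, Cox6a2 -0.067 to 0.11, Cox8b -0.068 to 0.51, Ndufa4 -0.077 to 0.19, Atp5b -0.043 to 0.017, Cox4i2 -0.044 to 0.28, Uqcrc2 -0.085 to 0.041, Ndufa11 -0.27 to 0.015, Ndufv1 -0.10 to 0.094 and Ctnnb1 -0.51 to -0.28. Leaving out each tumor in turn, HOM against HET gave 1 to 10 members higher at an unadjusted p under 0.05, 6 to 20 members with a lower mean and 0 to 3 genes called among all tested, and differences for Ndufa4l2 -0.45 to 0.39, Sdhb -0.11 to 0.070, Ctnnb1 -0.15 to 0.061, Cox4i2 -0.11 to 0.21, Cox5b -0.064 to 0.13, Cox6a2 -1.04 to 0.045, Cox8b -1.004 to 0.38, Cox6b2 -0.12 to 0.011 and Sdhc -0.012 to 0.17. 

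No paired analysis was possible because replicate numbers follow accession order and pair no tumors across genotypes. The counts at unadjusted p and of lower means were added after seeing the data. With 5 arrays per genotype, true differences anywhere within the 95% intervals given remain compatible with the data, and no limit of detection was computed. Ctnnb1 without the tumors labelled WT 5 and HOM 5 had an exact permutation p of 0.00794 for HET against WT and 0.0286 for HOM against WT, tumors chosen by Ctnnb1 itself.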
